A study of Saccharomyces cerevisiae with 227 samples.

Results

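The genes described are 35 nuclear genes for proteins of the large subunit of the mitochondrial ribosome of the yeast Saccharomyces cerevisiae, 34 named MRPL and the gene MRP7. They were taken by ORF name from the 5609 ORFs on the arrays, and all 35 were present. Transcript levels were followed over 227 two-color oligonucleotide arrays of the strain JM43, a MATα strain that carries mutant alleles of leu2, his4, trp1 and ura3 and functional mitochondrial DNA (rho+). Cells grew in sparged batch fermentors in semi-synthetic medium supplemented with ergosterol, Tween 80 and antifoam, with galactose (SSG-TEA) or glucose (SSD-TEA) as the carbon source. The arrays fall into 7 series, and time is counted in generations after the gas or the inhibitor was changed.

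Wild-type cells on galactose treated with the inhibitor antimycin A at 1 µM were sampled in air (33 arrays, 0 to 3 generations), and the same treated cultures were then shifted to N2 (30 arrays, 0.04 to 3 generations). An msn2/4 mutant on galactose, named for the paired stress regulators Msn2 and Msn4, was shifted from air to N2 (15 arrays, 0 to 2 generations). Untreated wild-type cells were shifted from air to N2 on galactose (42 arrays, 0 to 6 generations) and on glucose (41 arrays, 0 to 6 generations). Wild-type cells kept anaerobic for 6 generations were given air again on galactose (33 arrays, 6 to 7.6 generations) and on glucose (33 arrays, 6 to 7.6 generations). Each time point had 3 arrays, except 0.38 generations on glucose with 2. An antimycin A time course was assembled from a pair of fermentors sampled at alternate time points, and the labels do not say which fermentor gave an array. The p-values therefore measure the spread between arrays of a time point, pooled over all times in a fit.

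The mitochondrial ribosome translates the few proteins that mitochondrial DNA encodes, which are mainly core subunits of the respiratory chain and of the ATP synthase. All of its large-subunit proteins are encoded in the nucleus, made in the cytosol and imported, so their transcript levels are one of the points at which the cell can set the capacity for making respiratory complexes. Many of these transcripts are bound by Puf3, an RNA-binding protein that recognizes the 3′ untranslated regions of transcripts for mitochondrial proteins. Galactose-grown cells both respire and ferment, whereas glucose represses respiratory genes, and antimycin A blocks electron flow through the cytochrome bc1 complex while oxygen is still present.

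Each value is the authors' normalized ratio of sample over reference RNA, read as a log2 ratio, so a level of 0 means the same amount as in the reference and a change of 1 is a doubling. The base and the direction of the ratio were not stated in the labels. The direction was taken from the dyes, and it was checked on the mutated genes. At 0 generations MSN2 averaged −4.85 ± 0.62 in mutant cells, against 0.19 ± 0.17 in wild-type cells, and MSN4 averaged −1.73 ± 0.39 in mutant cells, against −0.40 ± 0.26 in wild-type cells (SD, 3 arrays per group). Reference RNA differed between series, so changes are against the control of the same series. The exception is N2 after antimycin A, whose control was 3 generations of antimycin A in air. Comparisons between series are differences of such changes, in which the reference cancels. Array medians lay between −0.079 and 0.088, and replicate arrays of a series correlated with a median Pearson r between 0.81 and 0.949 over all ORFs. Arrays of different times in 1 series, all of the same dye orientation, correlated as low as −0.53 under N2 on galactose, −0.507 under N2 on glucose and −0.519 in galactose re-aeration, where the reference is a pool of the times themselves. The lowest replicate r was 0.457, after 3 generations with antimycin A in air, the control for the later N2 shift of those cells. The medians of the 35 genes on its 3 arrays were 0.379, −0.341 and 0.191, so 1 control array stood apart. At 7.6 generations of re-aeration on glucose, the array labelled replicate 3 correlated at 0.99 with replicate 3 of 6.6 generations and at 0.848 to 0.926 with its own group. The count of genes called and their median at that time are given with and without it. Single-gene values, array overlaps and correlations across genes at that time include it. MRPL37 had no value on 93 arrays and MRPL49 none on 69. The open reading frames of MRPL19 and MRPL51 overlap other annotated ones, so their signals may include a second transcript.

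On galactose, transcripts of the large subunit rose briefly and then fell below their aerobic level once air was replaced by N2. At 0.13 generations 34 of the 35 genes had a positive change, with a median of 0.48, and at 0.5 generations 33 had a negative change, with a median of −0.96. The median over all ORFs tested stayed near 0 at both times (0.039 and 0.014). The fall outlasted the rise: the median was −0.76 at 3 generations, −0.62 at 4, −0.43 at 5 and −0.47 at 6.

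**Figure D1:**
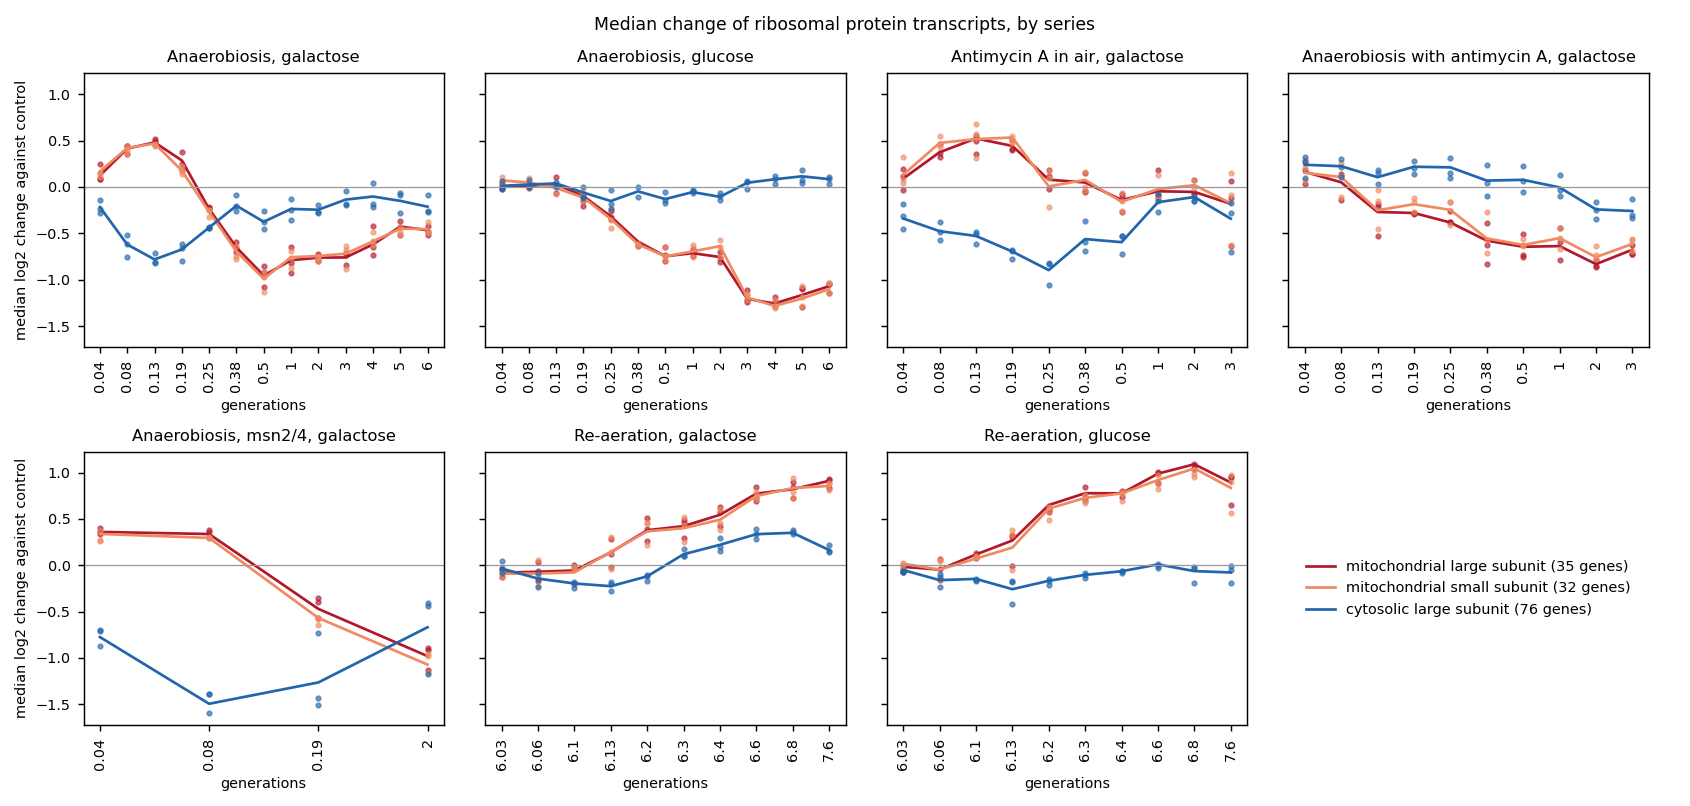
Median log2 change from the series' control (vertical axis) against generations (horizontal axis) in the 7 series, for the 35 large-subunit genes of the mitochondrial ribosome, the 32 small-subunit genes and 76 large-subunit genes of the cytosolic ribosome. Dots are the medians on single arrays and lines join the medians of the mean changes. Both mitochondrial lists have nearby medians in every panel, up to medians of 0.48 and 0.47 and down to −0.96 and −0.99 on galactose, while the cytosolic list was at −0.78 at 0.13 generations.

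The early rise was small and shared. On the 3 arrays of 0.13 generations the median over the genes was 0.47, 0.49 and 0.52. By limma with Holm adjustment over all ORFs at 0.01, the threshold behind every call here unless another is named, 7 of the 35 were higher at that time (20%, against 10.3% of all ORFs tested): MRPL1, MRPL8, MRPL15, MRPL22, MRPL23, MRPL25 and MRPL35. At 0.08 generations 2 were higher, MRPL32 and MRPL35, against 10.5% of all ORFs. With the less strict adjustment of Benjamini and Hochberg at 0.05, 31 of 35 were higher at 0.13 generations, against 29.9% of all ORFs. Quantile normalization of the arrays left 34 of 35 changes positive but reduced the median to 0.32 and the Holm calls to 0. Without the arrays of 1 replicate number, 0 or 1 of the genes was called higher at any time.

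MRPL25 (YGR076C), a subunit found only in mitochondrial ribosomes, had the largest change at 0.13 generations. Its levels were 0.70, 0.79 and 0.80 at 0.13 generations, against −0.17, −0.15 and 0.20 at 0 generations (change 0.80 ± 0.12 SE, limma Holm-adjusted p = 0.0017). MRPL35 (YDR322W), a mitochondria-specific protein of the central protuberance, had 0.79, 0.80 and 0.82 at 0.13 generations, against 0.13, 0.17 and 0.30 at 0 generations (change 0.60, limma Holm-adjusted p = 0.00057). The arrays of both times did not overlap for either gene. Over the members, all arrays of 0.13 generations lay above all controls in 30 of 35, against 33.6% of all ORFs. MRPL24 and MRPL6, relatives of bacterial ribosomal proteins, had changes of 0.69 ± 0.12 and 0.67 ± 0.15 (SE), but did not pass the test (limma Holm-adjusted p = 0.028 and 0.63). At the low end stood MRPL31 at −0.02 ± 0.09, MRPL13 at 0.08 ± 0.09 and MRPL40 at 0.14 ± 0.33 (SE). All 8 genes called higher at 0.08 or 0.13 generations were called lower later in the same series, but so were 29 of the 35 members as a whole. The share of all ORFs called in both directions was not computed.

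The later fall took in most of the subunit. At 0.38 generations 15 of 35 genes were lower (4.56% of all ORFs), at 0.5 generations 27 (6.38%), at 1 generation 23 (6.49%), at 2 generations 20 (6.99%) and at 3 generations 17 (6.88%). Over the whole series 29 of 35 genes were lower at 1 or more times (82.9%, against 24.5% of all ORFs), whereas 8 were higher at 1 or more (22.9%, against 20.1%). The share called lower was thus above the share of all ORFs, and the share called higher was close to it. Without the arrays labelled replicate 1, 2 or 3 in turn, 20, 9 and 14 genes were called lower, and the median at 3 generations stayed between −0.76 and −0.74.

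MRPL15 (YLR312W-A), a mitochondria-specific subunit, showed both movements on every array. Its levels were 0.38, 0.39 and 0.45 at 0 generations, 0.92, 1.02 and 1.15 at 0.13 generations, −1.04, −1.03 and −0.82 at 0.5 generations and −0.82, −0.58 and −0.44 at 3 generations. No array of these later times fell within the range of the controls. At 0.5 generations 32 of 35 members lay wholly below their controls, against 23.4% of all ORFs. Its change at 0.5 generations was −1.37 ± 0.09 (SE, limma Holm-adjusted p = 1.7e-10), which is 0.388 of the aerobic level. MRPL49 (YJL096W), a relative of bacterial ribosomal proteins, fell by 1.51 ± 0.17 at that time (SE, limma Holm-adjusted p = 1.1e-05), the lowest value of any member in this series.

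At 3 generations the lowest members were MRPL35, MRPL3 and MRPL7. MRPL35 stood at −0.89, −0.81 and −0.81 at 3 generations, against 0.13, 0.17 and 0.30 at 0 generations (−1.03 ± 0.08 SE, limma Holm-adjusted p = 1.1e-08), or 0.488 of the control. MRPL3 (YMR024W), a mitochondria-specific protein near the exit of the peptide tunnel, stood at −0.56, −0.50 and −0.43 at 3 generations, against 0.44, 0.53 and 0.64 at 0 generations (−1.03 ± 0.09 SE, limma Holm-adjusted p = 7.5e-08). The groups did not overlap for either gene, as for 32 of 35 members at this time and 22.4% of all ORFs in the same direction. MRPL7 (YDR237W), the counterpart of a bacterial protein of the central protuberance, stood at −0.88, −0.81 and −0.56 at 3 generations, against 0.040, 0.33 and 0.45 at 0 generations (−1.02 ± 0.12 SE, limma Holm-adjusted p = 2.5e-05).

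**Figure D2:**
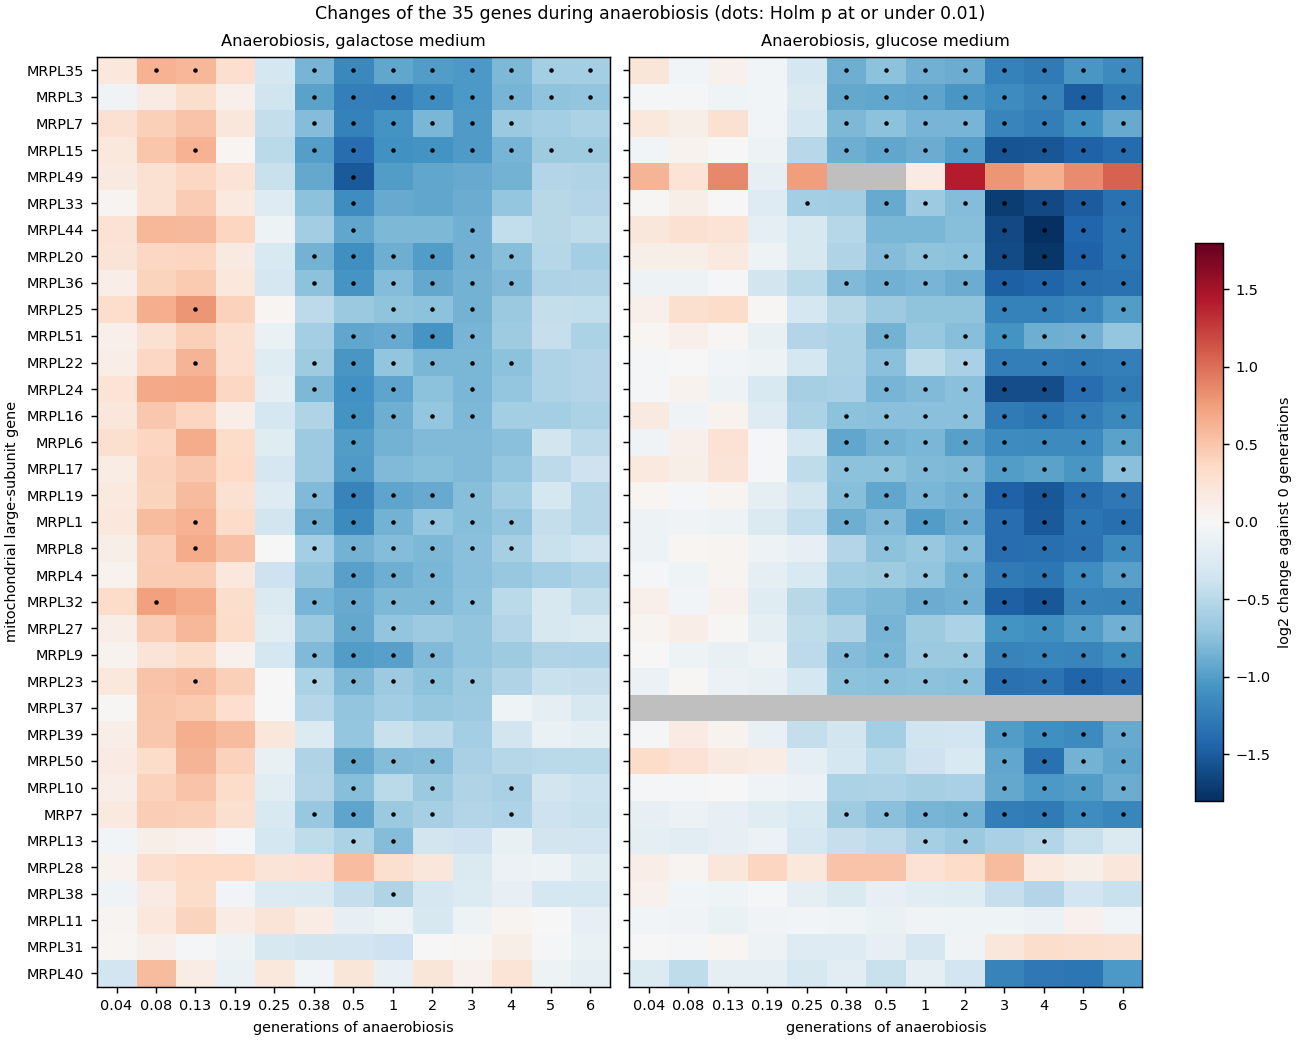
Log2 change from 0 generations of the 35 large-subunit genes (rows, ordered by the change at 3 generations on galactose) at 13 times of anaerobiosis on galactose (left) and on glucose (right). Color gives the change, a dot marks a Holm-adjusted limma p of 0.01 or less, and grey marks a gene not tested. On galactose the columns at 0.08 and 0.13 generations are almost all above 0 and those from 0.38 generations almost all below it, while on glucose the early rise is missing from the medians (0.01 and 0.03).

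The 22 members with a counterpart in the bacterial ribosome and the 13 found only in mitochondria both took part in the fall. At 3 generations on galactose 10 of the 22 (median −0.75) and 7 of the 13 (median −0.84) were lower. By place in the subunit, 3 of 6 genes of the central protuberance, 2 of 5 at the tunnel exit and 2 of 3 of the stalks were lower. These counts are descriptions, since the difference between classes was not tested.

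On glucose, where respiratory genes are already repressed in air, the fall came without a preceding rise and was deeper at the end. The median change was 0.03 at 0.13 generations, −0.32 at 0.25, −0.75 at 0.5, −0.71 at 1, −0.76 at 2, −1.21 at 3 and −1.26 at 4 generations, and −1.07 at 6. At 0.25 generations MRPL33 alone was lower (3.02% of all ORFs), at 0.38 generations 13 of 33 tested (3.19%), at 0.5 generations 21 of 33 (4.2%) and at 3 generations 27 of 34 (9.74%). Over all times 28 of 34 were lower at 1 or more (82.4%, against 14.8% of all ORFs), and 24 to 27 were without the arrays of 1 replicate number. On the 3 arrays of 3 generations the median was −1.11, −1.22 and −1.24.

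MRPL33 (YMR286W), a homolog of a bacterial large-subunit protein, was the lowest member at 3 generations on glucose. It stood at −1.49, −1.43 and −1.31 at 3 generations, against 0.18, 0.31 and 0.43 at 0 generations (−1.71 ± 0.10 SE, limma Holm-adjusted p = 4.5e-12), which is 0.305 of the aerobic level. MRPL44 (YMR225C), a mitochondria-specific subunit, stood at −1.31, −1.30 and −1.03 at 3 generations, against 0.23, 0.48 and 0.52 at 0 generations (−1.62 ± 0.15 SE, limma Holm-adjusted p = 2.2e-07). MRPL20 (YKR085C), also mitochondria-specific, stood at −1.27, −1.22 and −1.08 at 3 generations, against 0.39, 0.40 and 0.46 at 0 generations (−1.61 ± 0.11 SE, limma Holm-adjusted p = 2e-10). All arrays of 3 generations lay more than 1 log2 unit below those of 0 generations for these 3 genes. Wholly separate arrays in that direction were found for 30 of 34 members, against 25% of all ORFs. Among the 22 members with bacterial counterparts 18 were lower at that time (median −1.24), and among the 12 mitochondria-specific ones tested 9 were (median −1.11).

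At the high end on glucose were MRPL49, MRPL28 and MRPL31, none of which was called higher. MRPL49 had −0.92, −0.80 and −0.77 at 3 generations, against −2.12, −2.07 and −0.68 at 0 generations (0.79 ± 0.38 SE), and its 0-generation arrays overlapped those of 3 generations because 1 of them was high. MRPL31 (YKL138C), a mitochondria-specific subunit, had 0.26, 0.32 and 0.37 at 3 generations, against 0.052, 0.14 and 0.14 at 0 generations (0.21 ± 0.08 SE, limma Holm-adjusted p = 1). Its groups did not overlap, as for 32.4% of all ORFs in that direction, but the difference was below what the test across all ORFs could call.

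The 9 genes of the common course that are not described singly, MRPL4, MRPL9, MRPL16, MRPL17, MRPL22, MRPL27, MRPL32, MRPL36 and MRPL50, kept close to the medians. At 3 generations of N2 they lay between −0.85 (MRPL36) and −0.58 (MRPL50) on galactose and between −1.47 (MRPL32) and −0.94 (MRPL50) on glucose. MRPL32 is the subunit that the m-AAA protease of the inner membrane must cleave before it can join the ribosome, and MRPL36 belongs to the central protuberance.

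The change on galactose minus the change on glucose was tested as an interaction. At 0.13 generations it was positive in 32 of 34 genes (median 0.45), at 0.5 generations its median was −0.20, and at 3 generations it was positive in 30 of 34 (median 0.40), since glucose-grown cells fell further. With Holm adjustment only MRPL23 and MRP7 differed, 5.88% of the members against 29.5% of all ORFs. With the adjustment of Benjamini and Hochberg at 0.05, 22 of 34 were higher on galactose at 0.13 generations (25.7% of all ORFs) and 18 of 34 at 3 generations (12.1%). Without the arrays of any 1 replicate number 0 members passed Holm adjustment. The size of these differences rests on reading both series as log2, a base that was inferred, and N2 on glucose was the series closest to base e.

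MRPL23 (YOR150W), a relative of bacterial ribosomal proteins, had 0.68, 0.77 and 0.84 at 0.13 generations, against 0.15, 0.24 and 0.24 at 0 generations on galactose. On glucose MRPL23 had 0.28, 0.31 and 0.37 at 0.13 generations, against 0.24, 0.41 and 0.61 at 0 generations. Its arrays separated on galactose and overlapped on glucose, and the difference of the changes was 0.65 (limma Holm-adjusted p = 0.0071). At 3 generations the difference was 0.68 for MRPL23 (limma Holm-adjusted p = 0.0037), with levels of −0.52, −0.46 and −0.38 on galactose and −1.02, −0.98 and −0.77 on glucose. MRP7 (YNL005C), the counterpart of a bacterial protein beside the central protuberance, had −0.40, −0.27 and −0.23 at 3 generations, against 0.23, 0.24 and 0.24 at 0 generations on galactose. On glucose MRP7 had −0.89, −0.82 and −0.66 at 3 generations, against 0.29, 0.50 and 0.57 at 0 generations, and the changes differed by 0.71 (limma Holm-adjusted p = 0.002).

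Antimycin A added in air gave the early upward movement, and the later medians lay only slightly below the control. The median change of the 35 genes was 0.09 at 0.04 generations, 0.37 at 0.08, 0.52 at 0.13, 0.44 at 0.19, 0.08 at 0.25, −0.14 at 0.5, −0.05 at 1 and −0.18 at 3 generations. All 35 changes were positive at 0.13 and at 0.19 generations, and the medians of the 3 arrays at 0.13 generations were 0.36, 0.55 and 0.50. With Holm adjustment limma called 0 of 35 genes higher or lower at any time, against 11.4% of all ORFs higher and 12.3% lower at 1 or more times. At 0.5 generations 12 of 35 members lay wholly below their controls (24.6% of all ORFs) and 2 wholly above (19.3%). At 0.13 generations 23 of 35 were higher at an unadjusted p under 0.05 (26.5% of all ORFs) and 19 with the adjustment of Benjamini and Hochberg at 0.05 (23.1%). Quantile normalization left 31 of 35 positive there, with a median of 0.33.

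The members with the largest changes at 0.13 generations were MRPL24, MRPL40 and MRPL44. MRPL24 had 0.84, 1.03 and 1.4 at 0.13 generations of antimycin A, against −0.067, 0.074 and 0.43 before it (0.94 ± 0.24 SE, limma Holm-adjusted p = 1). MRPL40 (YPL173W), the counterpart of a bacterial protein at the tunnel exit, had 1.24, 1.32 and 1.41 at 0.13 generations, against 0.46, 0.47 and 0.67 before (0.79 ± 0.14 SE, limma Holm-adjusted p = 0.037). MRPL44 had 0.94, 1.01 and 1.22 at 0.13 generations, against 0.0094, 0.37 and 0.54 before (0.75 ± 0.26 SE). None of the 3 overlapped with its controls, and 25 of 35 members lay wholly above theirs, against 28.1% of all ORFs. MRPL50, MRPL11 and MRPL16 had the smallest changes (0.03 ± 0.26, 0.17 ± 0.13 and 0.19 ± 0.22, SE).

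From 0.38 generations on, antimycin A in air and N2 on galactose parted. The difference of the changes (antimycin A in air minus N2) had a median of −0.07 at 0.13 generations, 0.70 at 0.38, 0.79 at 0.5, 0.74 at 1, 0.75 at 2 and 0.58 at 3 generations, and it was positive in 34 of 35 genes at 0.5 generations. With the adjustment of Benjamini and Hochberg at 0.05, 24 of 35 differed at 0.5 generations (10% of all ORFs). With Holm adjustment MRPL10 and MRPL3 differed, 5.71% of the members against 14.6% of all ORFs.

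MRPL10 (YNL284C), a relative of bacterial ribosomal proteins, had 0.20, 0.24 and 0.34 at 0.5 generations of antimycin A in air, against −0.15, 0.051 and 0.12 before it. After 0.5 generations of N2 on galactose MRPL10 had −0.71, −0.57 and −0.46, against 0.16, 0.20 and 0.22 at 0 generations. The arrays moved in opposite directions, with a change of 0.25 ± 0.12 (SE) under antimycin A and −0.77 ± 0.09 (SE) under N2, and the difference was 1.02 ± 0.15 (SE, limma Holm-adjusted p = 3.2e-05). MRPL3 had 0.0097, 0.12 and 0.13 at 1 generation of antimycin A in air, against 0.051, 0.25 and 0.50 before it. At 1 generation of N2 MRPL3 had −0.78, −0.72 and −0.64, and the changes differed by 1.07 ± 0.18 (SE, limma Holm-adjusted p = 0.0018). Without the arrays labelled replicate 1, 2 or 3 in turn, 4, 0 and 0 members passed.

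When the antimycin A cultures were then shifted to N2, the early rise was absent and the later fall was present. The median change from the treated aerobic control was 0.16 at 0.04 generations, 0.05 at 0.08, −0.27 at 0.13, −0.38 at 0.25, −0.64 at 0.5, −0.64 at 1, −0.83 at 2 and −0.68 at 3 generations. At 2 generations 11 of 35 genes were lower (5.66% of all ORFs) and at 3 generations 5 (4.23%): MRPL3, MRPL4, MRPL7, MRPL13 and MRP7. Over all times 11 of 35 were lower at 1 or more (31.4%, against 8.24%). The count depends on the scattered control arrays: without the array that stood apart the median at 3 generations was −0.89, and against 0 generations of antimycin A in air 22 genes were lower with a median of −0.87. The latter comparison also takes in the 3 generations of antimycin A in air, and its share of all ORFs was not computed. With 1 array per time left out, by rank of its replicate number within the time, 1 to 4 genes were lower.

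MRPL3 had −0.94, −0.77 and −0.65 at 3 generations of N2 in antimycin A, against −0.14, 0.098 and 0.34 in the treated aerobic control (−0.89 ± 0.12 SE, limma Holm-adjusted p = 0.00024). MRPL20 changed by more but did not pass, with −0.97, −0.96 and −0.71 at 3 generations, against −0.45, 0.17 and 0.85 in the control (−1.07 ± 0.22 SE, limma Holm-adjusted p = 0.16). For both genes all 3 anaerobic arrays lay below all 3 control arrays, as for 21 of 35 members and 23.1% of all ORFs. The controls of MRPL20 spread over more than 1 log2 unit. MRPL44 changed by −0.94 ± 0.29 and MRPL39 by −0.42 ± 0.27 (SE). At the high end MRPL31 had −0.08 ± 0.13 and MRPL11 (YDL202W), the counterpart of a bacterial stalk protein, had 0.13 ± 0.12 (SE).

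The change under N2 after antimycin A minus the change under N2 alone on galactose was negative in 35 of 35 genes at 0.13 generations (median −0.73), and its median was −0.56 at 0.19, 0.33 at 0.5 and 0.05 at 3 generations. With the adjustment of Benjamini and Hochberg at 0.05, 31 of 35 differed at 0.13 generations (21.8% of all ORFs). With Holm adjustment 3 of 35 differed at any time (8.57%, against 27.8% of all ORFs): MRPL1, MRPL35 and MRP7. MRPL1 (YDR116C), of the stalk at the side of the exit site for transfer RNA, had −0.26, −0.25 and −0.24 at 0.13 generations of N2 after antimycin A, against 0.012, 0.12 and 0.38 in its control. Without antimycin A, MRPL1 had 0.77, 0.78 and 0.87 at 0.13 generations of N2, against 0.11, 0.16 and 0.27 in air. Its arrays lay below the control in one series and above it in the other, and the difference was −1.05 ± 0.15 (SE, limma Holm-adjusted p = 4e-05). MRPL35 differed by −1.01 at 0.13 generations and MRP7 by −0.69 at 0.19 (limma Holm-adjusted p = 0.0012 and 0.0087). Without the control array that stood apart 10 members differed (share of all ORFs not computed). With 1 array per time left out in turn, by rank of its replicate number within the time, 1, 2 and 0 did.

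In the msn2/4 mutant the fall began by 0.19 generations of N2 on galactose, a time at which the wild type was still above its aerobic level. The mutant's median change was 0.36 at 0.04 generations, 0.34 at 0.08, −0.47 at 0.19 and −0.98 at 2 generations, and the wild type's was 0.12, 0.41, 0.29 and −0.76 at those times. At 0.19 generations the medians of the 3 mutant arrays were −0.35, −0.57 and −0.40. With Holm adjustment 1 mutant gene was lower at 0.19 generations, MRPL19 (0.624% of all ORFs), and 10 of 35 were lower at 2 generations (28.6%, against 1.69% of all ORFs). At 0.04 and 0.08 generations 0 genes were called higher with Holm adjustment, and 13 and 16 of 35 were with that of Benjamini and Hochberg at 0.05 (14.3% and 21% of all ORFs). Without the arrays of any 1 replicate number 0 members were called lower in the mutant.

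The 10 genes lower at 2 generations in the mutant were MRPL1, MRPL7, MRPL15, MRPL19, MRPL20, MRPL24, MRPL36, MRPL40, MRPL49 and MRPL51. MRPL15 had −1.24, −1.19 and −1.02 at 2 generations, against 0.13, 0.18 and 0.49 at 0 generations (−1.42 ± 0.17 SE, limma Holm-adjusted p = 0.0037). MRPL40 had −1.23, −1.23 and −0.68 at 2 generations, against 0.16, 0.20 and 0.22 at 0 generations (−1.24 ± 0.15 SE, limma Holm-adjusted p = 0.0061). The arrays of both times were separate for both genes, and 30 of 35 members lay wholly below their controls, against 24.8% of all ORFs. MRPL49 changed by −1.26 ± 0.14 (SE, limma Holm-adjusted p = 0.0017), and at the high end MRPL28, MRPL31 and MRPL11 had 0.69 ± 0.34, 0.47 ± 0.20 and 0.09 ± 0.14 (SE).

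**Figure D3:**
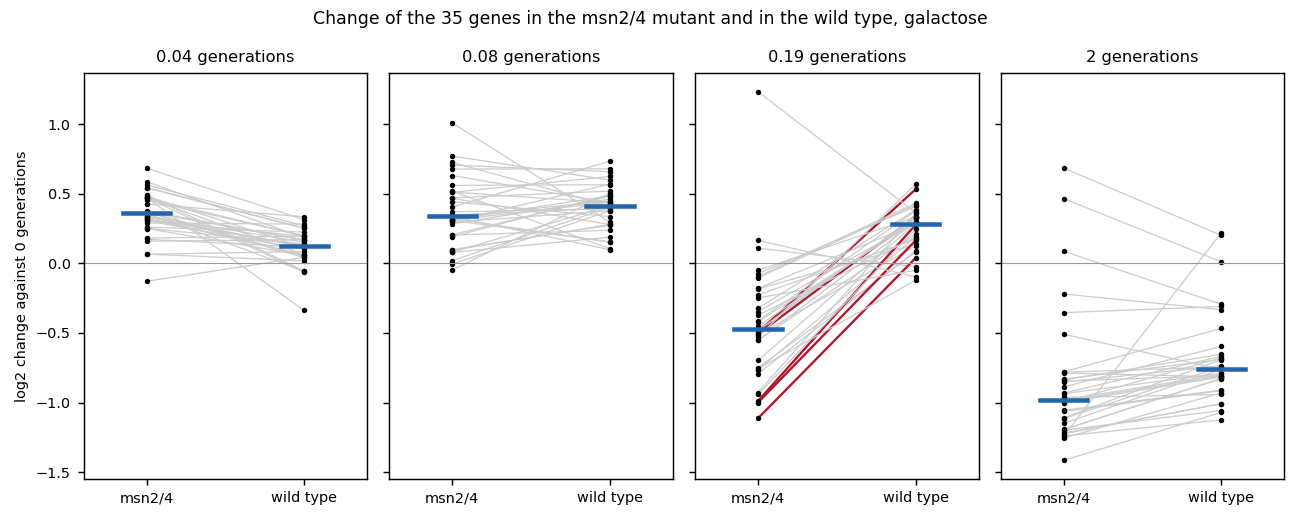
Log2 change from 0 generations of N2 on galactose for each large-subunit gene (vertical axis) in the msn2/4 mutant (left of each panel) and the wild type (right), in 4 panels for the times from 0.04 to 2 generations. Lines join the values of a gene, red lines are the 5 genes whose changes differed at 0.19 generations, and blue bars are medians. At 0.19 generations the mutant's median was −0.47 and the wild type's 0.29, while the medians at the other times were closer.

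The mutant's change minus the wild type's at 0.19 generations was negative in 32 of 35 genes, with a median of −0.76, and its median was 0.21 at 0.04, −0.05 at 0.08 and −0.18 at 2 generations. With Holm adjustment 5 of 35 genes differed at any time (14.3%, against 7.12% of all ORFs), all of them at 0.19 generations, where 1.89% of all ORFs were lower in the mutant. With the adjustment of Benjamini and Hochberg at 0.05, 27 of 35 were lower at that time (12.7% of all ORFs). The 5 genes were MRPL19 (difference −1.27, limma Holm-adjusted p = 8.6e-06), MRPL20, MRPL15, MRPL8 and MRPL1. Without the arrays labelled replicate 1, 2 or 3 in turn, 0, 0 and 2 of them or other members passed. The sources for this series name its reference RNA in conflicting ways, which does not touch changes within it if all its arrays had the same reference.

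MRPL19 (YNL185C), the counterpart of a bacterial protein of the stalk base, had −0.90, −0.84 and −0.78 at 0.19 generations, against 0.092, 0.13 and 0.22 at 0 generations in the mutant. In the wild type MRPL19 had 0.47, 0.47 and 0.81 at 0.19 generations, against 0.23, 0.30 and 0.39 at 0 generations. The mutant's arrays fell below and the wild type's arrays lay above their own controls. In the mutant 26 of 35 members lay wholly below at that time, against 27.6% of all ORFs, and in the wild type 17 of 35 lay wholly above, against 26.7%. MRPL20 had −0.75, −0.46 and −0.42 at 0.19 generations, against 0.32, 0.49 and 0.55 at 0 generations in the mutant, and 0.31, 0.32 and 0.74 against 0.16, 0.23 and 0.49 in the wild type (difference −1.17, limma Holm-adjusted p = 0.00015). MRPL15 had −1.21, −0.73 and −0.60 at 0.19 generations, against 0.13, 0.18 and 0.49 at 0 generations in the mutant, and 0.36, 0.43 and 0.55 against 0.38, 0.39 and 0.45 in the wild type (difference −1.15, limma Holm-adjusted p = 0.00033). For these last 2 genes only the mutant's arrays were separated by time. MRPL8 and MRPL1, both with bacterial counterparts, differed by −1.03 and −0.84 (limma Holm-adjusted p = 8.1e-05 and 0.0083).

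Air brought the transcripts back up in both media. On galactose the median change from the anaerobic control was −0.08 at 6.03 generations, 0.14 at 6.13, 0.38 at 6.2, 0.54 at 6.4, 0.77 at 6.6, 0.82 at 6.8 and 0.91 at 7.6 generations. On glucose it was −0.02, 0.27, 0.65, 0.78, 0.99, 1.09 and 0.89 at those times. On galactose 23 of 33 genes tested were higher at 7.6 generations (6.6% of all ORFs) and 24 of 33 at 1 or more times (72.7%, against 16.1%). On glucose 12 of 33 were higher by 6.2 generations (7.43%), 25 by 6.8 generations (7.13%), 18 at 7.6 generations (6%) and 26 at 1 or more times (78.8%, against 12.9%). Without the doubtful array 16 of 33 were higher at 7.6 generations on glucose (share of all ORFs not computed), with a median of 0.80. Leaving out the arrays labelled replicate 1, 2 or 3 in turn, the count at 1 or more times was 12, 1 and 18 on galactose and 18, 16 and 15 on glucose.

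MRPL15 had 0.70, 0.83 and 0.97 at 7.6 generations on galactose, against −0.52, −0.41 and −0.40 in the anaerobic control (1.28 ± 0.12 SE, limma Holm-adjusted p = 7.4e-07), a 2.42-fold rise. MRPL20 had 0.67, 0.70 and 0.89 at 7.6 generations on galactose, against −0.59, −0.51 and −0.43 in the control (1.26 ± 0.15 SE, limma Holm-adjusted p = 2.7e-05). MRPL51 (YPR100W), a mitochondria-specific subunit, had 0.47, 0.60 and 0.64 at 7.6 generations on galactose, against −0.77, −0.73 and −0.39 in the control (1.20 ± 0.14 SE, limma Holm-adjusted p = 3.8e-05). Every re-aerated array of these 3 genes lay above 0 and every anaerobic one below it, and 30 of 33 members were wholly above their controls, against 21.8% of all ORFs. At the low end MRPL28, MRPL40 and MRPL31 had −0.46 ± 0.16, −0.08 ± 0.18 and −0.06 ± 0.10 (SE).

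On glucose MRPL35 had 0.87, 1.23 and 1.26 at 7.6 generations, against −0.26, −0.16 and −0.068 in the control (1.28 ± 0.12 SE, limma Holm-adjusted p = 4.4e-08). MRPL23 had 0.96, 1.04 and 1.04 at 7.6 generations, against −0.26, −0.20 and −0.16 in the control (1.22 ± 0.08 SE, limma Holm-adjusted p = 6.2e-12). MRPL6 had 0.88, 0.93 and 1.04 at 7.6 generations, against −0.38, −0.16 and −0.10 in the control (1.16 ± 0.11 SE, limma Holm-adjusted p = 5.7e-08). The groups were again wholly separate, as for 27 of 33 members and 17.9% of all ORFs in that direction. At the low end MRPL28, MRPL31 and MRPL11 had −0.05 ± 0.12, −0.01 ± 0.11 and 0.06 ± 0.08 (SE).

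**Figure D4:**
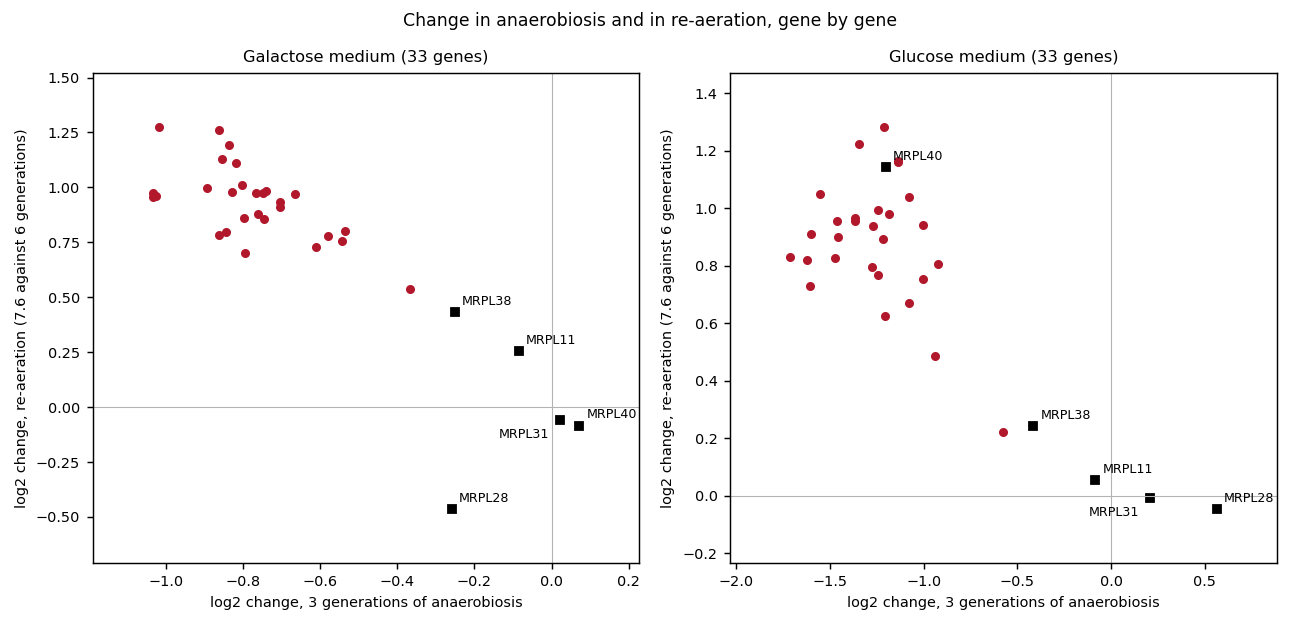
Log2 change at 3 generations of N2 (horizontal axis) against log2 change at 7.6 generations of re-aeration (vertical axis) for 33 large-subunit genes on galactose and on glucose. Each point is a gene, and black squares are MRPL11, MRPL28, MRPL31, MRPL38 and MRPL40. Most genes sit at low N2 values and high re-aeration values, near the medians of −0.76 and 0.91 on galactose and −1.21 and 0.89 on glucose, and the black squares lie apart on galactose.

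Mostly the same genes were lowered by N2 and raised by air. Of the 35 genes, 27 were lower under N2 on both sugars, MRPL38 and MRPL49 on galactose only, MRPL39 on glucose only, and MRPL11, MRPL28, MRPL31 and MRPL40 on neither. MRPL37 changed by −0.65 at 3 generations on galactose without being called, and it could not be tested on glucose. Of the 27, 22 were higher in both re-aeration series and 25 in at least 1 of them, while MRPL13 and MRPL44 were called in neither. At 7.6 generations MRPL44 still rose by 0.78 on galactose and 0.82 on glucose, and MRPL13 by 0.54 and 0.22. Most members were called in each of these series, so a large overlap follows from the single counts. The share of all ORFs with such joint calls was not computed. Across 33 genes the change at 3 generations of N2 and the change at 7.6 generations of re-aeration correlated at r = −0.857 (Spearman −0.724) on galactose and at r = −0.801 (Spearman −0.407) on glucose. These are correlations across genes of 1 complex, which are not independent replicates. Without MRPL11, MRPL28, MRPL31, MRPL38 and MRPL40, chosen after their values were seen, r was −0.632 and −0.372 over 28 genes, so much of it came from those 5.

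Re-aeration on galactose and on glucose differed for 1 member with Holm adjustment (3.03%, against 9.23% of all ORFs). MRPL40 had −0.50, −0.36 and 0.033 at 6.8 generations on galactose, against −0.25, −0.011 and 0.28 in the anaerobic control. On glucose MRPL40 had 0.25, 0.27 and 0.33 at 6.8 generations, against −1.02, −0.99 and −0.97 in the control. Its arrays overlapped on galactose and were far apart on glucose (1.28 ± 0.13 SE, limma Holm-adjusted p = 1.2e-06), and the changes differed by −1.56 (limma Holm-adjusted p = 4.9e-05). Without the arrays labelled replicate 1 or 3, 0 members differed.

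A few members did not follow the others, and they were unlike in kind. Over the means of 0 to 3 generations on galactose, the median correlation of a member with the median of the rest was 0.99, while it was 0.0524 for MRPL28, 0.076 for MRPL40 and 0.587 for MRPL31. MRPL11 (0.752) and MRPL38 (0.922) are described as well, chosen after their values were seen. With Holm adjustment MRPL11, MRPL28 and MRPL31 were called at 0 of 70 times in the 7 series and MRPL37 at 0 of the 37 at which it could be tested. MRPL37 nevertheless followed the others, with a correlation of 0.984 under N2 on galactose and 0.974 under N2 after antimycin A. How many of all ORFs were never called, or had such counts of times, was not computed. At an unadjusted p under 0.05 MRPL28 was higher at 24 of 70 times and lower at 8, MRPL31 lower at 24 and higher at 8, MRPL11 higher at 11 and lower at 2, and MRPL37 lower at 11 and higher at 4. With the adjustment of Benjamini and Hochberg at 0.05, MRPL31 was lower at 20, so it was not without movement.

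**Figure D5:**
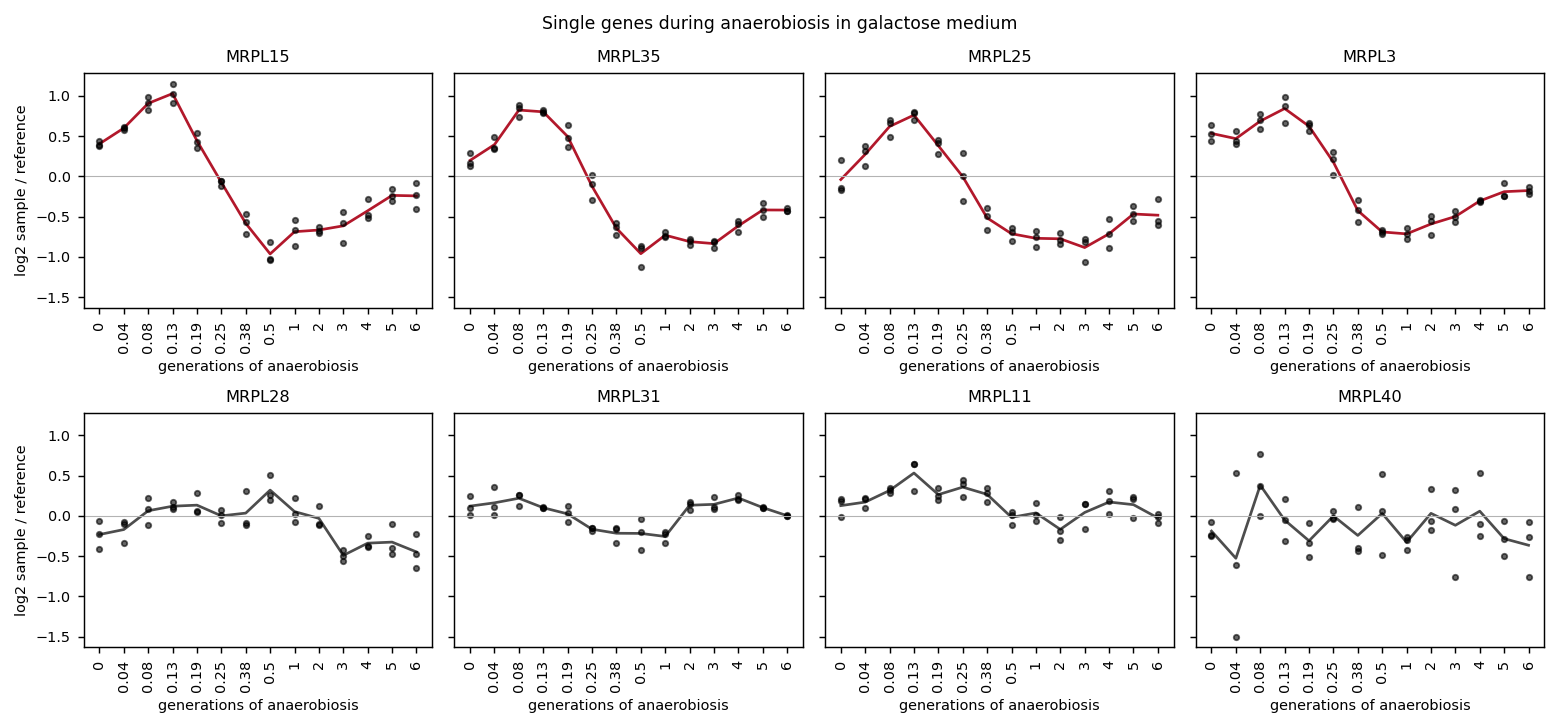
Log2 ratio to the reference on each array (dots, vertical axis) and their mean (line) against generations of N2 on galactose (horizontal axis) for 8 large-subunit genes. MRPL15, MRPL35, MRPL25 and MRPL3 (top) end below their level at 0 generations, and MRPL28, MRPL31, MRPL11 and MRPL40 (bottom) end close to it, with the arrays of MRPL40 spread from −1.5 to 0.53 at 0.04 generations.

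MRPL28 (YDR462W), a mitochondria-specific protein of the central protuberance, differed from the rest at some times, though none of its changes passed the test. It had 0.20, 0.26 and 0.50 at 0.5 generations of N2 on galactose, against −0.41, −0.23 and −0.059 at 0 generations (0.55 ± 0.12 SE, limma Holm-adjusted p = 0.38), when the median of the 35 was −0.96. On re-aeration MRPL28 had −0.41, −0.35 and −0.28 at 6.8 generations on galactose, against 0.11, 0.39 and 0.63 in the anaerobic control (−0.72 ± 0.16 SE, limma Holm-adjusted p = 0.56). Its arrays were separate from the controls both times and on the opposite side from most members. So were 23% of all ORFs above their controls at the first time and 23.6% below them at the second. At other times it was on their side, with 0.35 at 0.13 and −0.26 at 3 generations of N2 on galactose, 0.74 at 0.13 generations of antimycin A in air and −0.82 at 3 generations of N2 after antimycin A. Its correlation with the median of the other members was −0.845 in galactose re-aeration and −0.801 under N2 on glucose, but 0.254 under antimycin A in air, 0.261 under N2 after antimycin A and 0.194 in glucose re-aeration. In the msn2/4 mutant its change at 0.19 generations was 1.23 ± 0.34 (SE, limma Holm-adjusted p = 1).

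At 3 generations of N2 on galactose MRPL31 and MRPL11 were close to their aerobic level. MRPL31 had 0.083, 0.11 and 0.23 at 3 generations of N2 on galactose, against 0.014, 0.10 and 0.24 at 0 generations (0.02 ± 0.09 SE). MRPL11 had −0.16, 0.14 and 0.15 at 3 generations, against −0.019, 0.19 and 0.21 at 0 generations (−0.08 ± 0.10 SE). The arrays overlapped for both, where the median of the 35 was −0.76. Elsewhere MRPL31 went as low as −0.58 at 1 generation of N2 after antimycin A, and MRPL11 as high as 0.41 at 0.13 generations of N2 on galactose, neither of them called.

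MRPL40 did not follow the other members in the 2 wild-type galactose series without antimycin A. It had −0.76, 0.086 and 0.32 at 3 generations on galactose, against −0.25, −0.24 and −0.079 at 0 generations (0.07 ± 0.33 SE), so its arrays overlapped widely. On glucose MRPL40 had −1.0, −0.72 and −0.60 at 3 generations, against 0.20, 0.24 and 0.85 at 0 generations (−1.20 ± 0.31 SE, limma Holm-adjusted p = 1), with no overlap, as for 25% of all ORFs in that direction. Its correlation with the median of the other members was 0.962 under antimycin A in air, 0.986 under N2 after antimycin A, 0.995 in the msn2/4 mutant, 0.982 in glucose re-aeration and 0.663 under N2 on glucose, against 0.076 under N2 on galactose and 0.0725 in galactose re-aeration. MRPL38 (YKL170W), a relative of bacterial ribosomal proteins, was called lower once, at 1 generation on galactose (−0.54, limma Holm-adjusted p = 0.0046), and changed by −0.25 at 3 generations. MRPL13 (YKR006C), a mitochondria-specific protein near the tunnel exit, fell by 0.78 at 1 generation on galactose (limma Holm-adjusted p = 6.5e-06) and changed by 0.54 on re-aeration at 7.6 generations (limma Holm-adjusted p = 0.046).

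Both groups of ribosomal proteins outside the list had medians near those of the large subunit, and the other translation genes were called less evenly. The 32 small-subunit genes had medians of 0.47, −0.99 and −0.72 at 0.13, 0.5 and 3 generations of N2 on galactose, with 7 higher at the first (10.3% of all ORFs) and 23 and 17 lower at the later times (6.38% and 6.88%). The 11 other large-subunit genes on the arrays, outside the list of 35, had medians of 0.50, −0.88 and −0.76 at those times, with 8 and 5 lower at the later ones. The 8 translation factors had medians of 0.62, −0.79 and −0.67, with 5 and 3 lower at the later times. The 13 aminoacyl-tRNA synthetases had 0.46, −0.52 and −0.36, with 5 and 3 lower, and the 12 genes for assembly and membrane insertion 0.06, −0.68 and −0.55, with 5 and 2 lower. Differences between these lists were not tested. At 3 generations MRPS17 and MRP13 of the small subunit had −1.32 and −1.19, and TUF1, the mitochondrial elongation factor Tu, had −1.16 (limma Holm-adjusted p = 1.4e-06, 4.7e-07 and 8.4e-10). MNP1, a large-subunit protein outside the list, had −1.05 (limma Holm-adjusted p = 3e-06). At the other end of these lists RSM24 had 0.40, RTC6 0.14, ISM1 0.40 and MEF1 0.62 ± 0.47 (SE), none of them called.

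The cytosolic ribosome followed another course. The 76 genes for its large-subunit proteins had medians of −0.78, −0.38 and −0.14 at 0.13, 0.5 and 3 generations of N2 on galactose, with 45, 2 and 1 of them lower (12.9%, 6.38% and 6.88% of all ORFs). At 0.13 generations of antimycin A in air the mitochondrial large subunit was at 0.52 and the cytosolic list at −0.53, and at 0.19 generations in the msn2/4 mutant they were at −0.47 and −1.26. On glucose at 3 generations the mitochondrial large subunit was at −1.21 and the small one at −1.19 (27 of 32 lower, against 9.74% of all ORFs), against 0.05 for the cytosolic list, of which 0 were lower. RPL36B, 1 of the cytosolic genes, had −0.75 at 3 generations on galactose (limma Holm-adjusted p = 0.0004), and paralogous RPL pairs may share signal. At that time RPL11A and RPL11B had identical values (−0.11 ± 0.10 SE), as did RPL14A and RPL14B (−0.29 ± 0.21 SE). Counts over the 76 genes can therefore hold the same measurement more than once.

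PUF3 itself was called lower on glucose and at no time in the other series, with −1.07 ± 0.16 at 3 generations, −1.02 at 4 and −1.11 at 5 (SE, limma Holm-adjusted p = 0.0023, 0.0067 and 0.0015). On galactose PUF3 had −0.62 ± 0.22 at 3 generations (SE, limma Holm-adjusted p = 1). Its changes lay between −0.97 and −0.48 at the 10 times of N2 after antimycin A and between 0.90 and 1.35 at the first 5 times of antimycin A in air, and none of these was called. Whether the change of PUF3 differed between the sugars was not tested.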

How the data were processed

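The authors hybridized Cy3-labeled sample cDNA against Cy5-labeled reference pools, quantified spots with GenePix Pro and normalized with SAS, and deposited 1 value per ORF and array, read as log2 of sample over reference. The base is inferred: 3 of the 4 series with pooled references were closest to base 2 and glucose anaerobiosis to base e. Symbols came from RefSeq by ORF name. With limma 3.58.1 in R 4.3.3, a model with a mean for each time was fitted per series and each time compared with the control, with Holm adjustment over all ORFs per time point and a threshold of 0.01. A gene needed 2 values per group. Times from 4 to 6 generations of anaerobiosis were tested in a fit of all 14. Differences between series were interaction terms. Single genes were named where they had the 3 lowest or 3 highest changes of a series, the 3 largest called differences, or the 3 lowest correlations with the others. The members, lists, times and named-gene rule were chosen with earlier results of these data known. The models were tested on simulated data. Alternatives were Benjamini-Hochberg adjustment, median centring, quantile normalization, a replicate block, fits of only the groups compared, another control and leaving out replicates. Sequences were not analysed here.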

Additional observations from a re-analysis of the deposited data

Results flagged for a closer look

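In 13 cases, each a gene in 1 comparison, the change of a gene differed between series by limma's interaction test with Holm adjustment at 0.01. Each is given at its largest called difference. MRPL10 and MRPL40 were called at 4 times each. MRPL23, and MRPL1 for N2 after antimycin A, were called at 2, and the other cases at 1. Antimycin A in air minus N2 on galactose gave 1.07 for MRPL3 at 1 generation and 1.02 for MRPL10 at 0.5 generations. N2 after antimycin A minus N2 alone gave −1.05 for MRPL1 and −1.01 for MRPL35 at 0.13 generations, and −0.69 for MRP7 at 0.19 generations. N2 on galactose minus N2 on glucose gave 0.71 for MRP7 and 0.68 for MRPL23 at 3 generations.

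The msn2/4 mutant minus the wild type at 0.19 generations of N2 gave −1.27 for MRPL19, −1.17 for MRPL20, −1.15 for MRPL15, −1.03 for MRPL8 and −0.84 for MRPL1. Re-aeration on galactose minus re-aeration on glucose gave −1.56 for MRPL40 at 6.8 generations. The differences with antimycin A, with glucose and with the mutant share the arrays of N2 on galactose. Groups of 2 or 3 arrays are too small to look for single arrays far from the others.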

How the results depend on the processing

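No recomputed median, count or value of a named member changed direction, but with quantile normalization the changes at 0.13 generations of antimycin A in air were positive in 31 and negative in 4 members, against 35 and 0 without it, and those at 0.19 generations in the msn2/4 mutant positive in 4 and negative in 31, against 3 and 32. Of the recomputed counts of members 100 stayed within 1.5 times and 64 did not, of the medians 42 moved by less than the spread between arrays and 10 by more, and of the values of named members 129 kept their side of the threshold and 83 lost the call. The number of arrays per time, 2 or 3, limits the precision. Many counts at the Holm threshold fell where arrays were removed, but under N2 on glucose 24 to 27 members stayed lower, against 28. The cause of these falls was not tested. Shares of all ORFs were not computed for the altered settings, except for Benjamini-Hochberg adjustment.

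The mean over the members in place of the median was −0.681 under N2 on galactose, −1.04 on glucose and 0.793 in galactose re-aeration. With the adjustment of Benjamini and Hochberg at 0.05, the members called at 1 or more times, with the share of all ORFs in brackets, were 31 higher under N2 on galactose (54.8%) and 5 higher on glucose (51.6%), 2 lower (36.9%) and 27 higher (37%) under antimycin A in air, 33 lower under N2 after antimycin A (37.4%), 30 lower (34.5%) and 19 higher (30%) in the msn2/4 mutant, and 4 (48%) and 2 (42.9%) lower in re-aeration on galactose and on glucose. The differences then called were 30 for antimycin A in air against N2 (52.7%), 33 for N2 after antimycin A against N2 alone (70.9%), 30 between sugars (73.3%), 30 for msn2/4 (45%) and 8 for re-aeration (44.2%).

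With quantile normalization 0 members were higher under N2 on galactose, the medians were −0.96 under N2 on glucose and 0.326 under antimycin A in air, and the first 3 differences gave 14, 1 and 1 members. With median-centred arrays the median after antimycin A and N2 was −0.621, and the differences of antimycin A in air and of the sugars gave 7 and 6 members. In fits of only the groups compared, 2 members were lower and 0 higher under N2 on galactose, 0 lower under N2 after antimycin A and 0 in the msn2/4 mutant, 3 higher in galactose re-aeration, and each of the 5 differences gave 0. The smaller number of arrays behind the spread is part of that setting's construction. For the other settings the cause was not tested.

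Against 0 generations of antimycin A in air, 22 members were lower under N2 after antimycin A, with a median of −0.871. That comparison covers the time with antimycin A in air as well as the N2 shift. Without the control array that stood apart, an alternative chosen after seeing the data, the median was −0.893 and 10 members differed from N2 alone.

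Same-numbered arrays of a time and its control deviated together in every pair (correlation over 0.1) at 8 of 10 times in galactose re-aeration, 5 of 10 under N2 after antimycin A, 4 of 10 under antimycin A in air, 2 of 4 in the msn2/4 mutant, 2 of 10 in glucose re-aeration, 1 of 13 under N2 on glucose and 0 of 13 on galactose. The labels name no shared culture and no series met this at all times, so the numbers were not taken as pairs. With the replicate number as a block, the members called were 1 lower in galactose re-aeration (0 without the block), 5 for antimycin A in air against N2 (2), 5 for N2 after antimycin A against N2 alone (3) and 2 between re-aerations (1), and the other counts stayed within 1.5 times.

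Leaving out 1 replicate number in turn gave 9 to 20 members lower and 0 to 1 higher under N2 on galactose, 1 to 4 lower under N2 after antimycin A with medians from −0.896 to −0.47, 0 to 0 lower in the msn2/4 mutant, 1 to 18 higher in galactose re-aeration and 15 to 18 in glucose re-aeration. The differences gave 0 to 4 members for antimycin A in air, 0 to 2 for N2 after antimycin A, 0 to 0 for the sugars, 0 to 2 for msn2/4 and 0 to 1 for re-aeration. In the antimycin A series the array left out was taken by the rank of its replicate number within its time.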
